A study of Mus musculus with 3 samples.

Results

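Cytosine modification was read at the 3 DNA methyltransferase genes Dnmt1, Dnmt3a and Dnmt3b, at Dnmt3l and at Uhrf1. These 5 genes were taken by name from the 22367 protein-coding genes of GENCODE M1 on mouse chromosomes 1 to 19, X and Y, and all 5 were found. The gDNA came from E14 mouse embryonic stem cells (mESCs), a cell line grown without treatment groups on gelatin with 15% serum, 1000 units/mL LIF, 1 µM PD0325901 (a MEK inhibitor) and 3 µM CHIR99021 (a GSK3 inhibitor). It was sequenced in 3 libraries, 1 for each of 3 methods: TAPSβ, in which 5hmC is blocked with glucose and 5mC is then oxidized and reduced, so that 5mC is read; CAPS, in which chemical oxidation and borane reduction read 5hmC; and PS, in which borane reduction alone reads 5fC and 5caC. There were no replicates, so the intervals given for levels are exact (Clopper-Pearson) 95% binomial intervals that cover counting error alone. A read counts at every cytosine it covers, so intervals of levels pooled over cytosines are too narrow, also where their overlap is described. The tests compare places within 1 library, or a place with a false-positive rate measured on unmodified DNA. CAPS and TAPSβ also convert the bases that PS reads. DNA fragments were selected at 200 to 400 bp for CAPS and at 300 to 500 bp for TAPSβ and PS.

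DNMT1 copies CpG methylation onto the new strand after replication, and UHRF1 recruits it there by binding hemimethylated CpGs and histone H3. DNMT3A and DNMT3B add methylation to unmodified CpGs, and DNMT3L, which has no catalytic activity of its own, stimulates them. In mice, Dnmt3a has an internal promoter that gives a short protein without the N-terminal part, the main form in mESCs, and Dnmt1 has an upstream start used in oocytes. A level below is the share of reads that were modified, pooled over the CpG cytosines of a region on both strands. Regions did not overlap: promoters (500 bp on each side of every annotated transcript start) were taken first, then exons, then introns, and then the 10 kb upstream of the gene.

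The 5 genes held 8465 CpG cytosines listed in all 3 libraries between 10 kb upstream and the gene end. Over the genome the levels were 57.5% in TAPSβ, 3.14% in CAPS and 0.246% in PS, at a median of 13, 9 and 9 reads per cytosine. Of 7 pluripotency genes (Pou5f1, Sox2, Nanog, Esrrb, Zfp42, Klf4 and Tdgf1), 7 had promoter TAPSβ levels under 20%, beside 59.9% of coding genes. The median of the 7 was 0.343%, beside 12.7% over coding genes. These levels are not expression, which was not measured.

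Sequences before the start sites are shown first, because start sites of the same gene differed in TAPSβ level by over 60 percentage points. Each line gives the 250 bases before a start in NCBIM37 (mm9), 5′ to 3′ on the gene's strand, with CpGs in capitals. The Dnmt1 starts are those of RefSeq (GRCm38.p6), whose promoter sequences each matched NCBIM37 exactly once; the others are GENCODE M1 starts.
Dnmt1, upstream start (chr9:20764333-20764582, minus strand): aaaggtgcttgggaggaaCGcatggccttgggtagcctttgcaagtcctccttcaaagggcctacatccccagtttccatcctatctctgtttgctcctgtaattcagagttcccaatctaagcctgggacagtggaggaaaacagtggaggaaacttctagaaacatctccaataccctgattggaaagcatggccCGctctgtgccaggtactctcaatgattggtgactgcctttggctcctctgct
Dnmt1, downstream start (chr9:20757424-20757673, minus strand): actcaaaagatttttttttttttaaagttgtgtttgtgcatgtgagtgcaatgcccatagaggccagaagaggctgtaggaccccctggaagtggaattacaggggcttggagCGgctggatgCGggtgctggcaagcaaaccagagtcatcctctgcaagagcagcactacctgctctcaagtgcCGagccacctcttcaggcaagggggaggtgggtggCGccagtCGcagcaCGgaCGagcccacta
Dnmt3a-001, first promoter (chr12:3806780-3807029, plus strand): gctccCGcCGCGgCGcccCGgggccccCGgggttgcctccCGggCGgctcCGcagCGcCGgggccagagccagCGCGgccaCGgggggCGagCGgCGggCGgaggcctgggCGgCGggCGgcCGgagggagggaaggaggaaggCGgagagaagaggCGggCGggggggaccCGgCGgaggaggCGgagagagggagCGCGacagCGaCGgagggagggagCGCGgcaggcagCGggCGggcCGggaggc
Dnmt3a-201, internal promoter (chr12:3891494-3891743, plus strand): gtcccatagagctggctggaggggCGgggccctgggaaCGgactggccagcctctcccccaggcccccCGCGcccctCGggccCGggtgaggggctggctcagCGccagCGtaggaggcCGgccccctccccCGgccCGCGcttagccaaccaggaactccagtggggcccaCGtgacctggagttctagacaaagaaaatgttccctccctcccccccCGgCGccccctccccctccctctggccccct
Dnmt3b-002, first promoter (chr2:153474936-153475185, plus strand): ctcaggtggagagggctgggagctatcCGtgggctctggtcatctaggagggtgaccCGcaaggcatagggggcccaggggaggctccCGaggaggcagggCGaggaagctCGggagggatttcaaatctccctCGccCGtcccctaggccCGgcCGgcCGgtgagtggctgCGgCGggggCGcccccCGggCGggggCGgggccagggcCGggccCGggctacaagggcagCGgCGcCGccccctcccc
Dnmt3l-003, internal promoter (chr10:77512337-77512586, plus strand): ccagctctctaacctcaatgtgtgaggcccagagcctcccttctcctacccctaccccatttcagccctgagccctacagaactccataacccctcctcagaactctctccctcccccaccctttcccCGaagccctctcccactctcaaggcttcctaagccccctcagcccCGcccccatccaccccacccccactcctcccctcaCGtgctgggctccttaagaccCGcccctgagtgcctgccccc
Uhrf1-001, first promoter (chr17:56442494-56442743, plus strand): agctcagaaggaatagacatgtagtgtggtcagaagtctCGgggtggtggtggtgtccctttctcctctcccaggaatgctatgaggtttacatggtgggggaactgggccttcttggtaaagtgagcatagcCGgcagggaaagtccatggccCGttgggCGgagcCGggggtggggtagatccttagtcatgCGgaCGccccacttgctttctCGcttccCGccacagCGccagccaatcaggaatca

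The upstream Dnmt1 sequence holds 2 CpGs and had 45 of 54 TAPSβ reads modified (83.3%, 70.7 to 92.1%), whereas the downstream Dnmt1 sequence holds 7 CpGs and had 1 of 234 (0.427%, 0.0108 to 2.36%). The Dnmt3a sequences hold 37 CpGs at the first promoter, with 3 of 678 TAPSβ reads modified, and 15 CpGs at the internal promoter, with 0 of 496. The Dnmt3b sequence holds 21 CpGs, with 3 of 421 reads modified, and the Uhrf1 sequence 10 CpGs, with 1 of 372. The Dnmt3l sequence holds 4 CpGs, with 0 of 59. So 6 of these 7 sequences were nearly free of 5mC, and the upstream Dnmt1 start, with the fewest CpGs of the 7, was not. The 7 were picked from more starts, so this count is not a share of all starts. Of the 20 annotated promoters described below, 13 had TAPSβ levels of 21.5% or more, and none of those 13 is shown. Over promoters of all coding genes, 41.7% were under 20%. The 250 bases before the most upstream coding start of Dnmt3l, Dnmt3l-001, are not shown because 75 of them lie in annotated UTRs, where Dnmt3a-201 has 16; they hold 5 CpGs and had 78 of 132 TAPSβ reads modified (59.1%).

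Transcript starts whose windows overlap were joined into 1 promoter and numbered from the 5′ end of the gene, which gave 20 promoters: 1 in Dnmt1, 10 in Dnmt3a and 3 in each of Dnmt3b, Dnmt3l and Uhrf1. Of these, 7 had a TAPSβ level under 20%, and those 7 lay between 0.239% and 3.90%. The other 13 lay between 21.5% and 75.1%, with a median of 60.2%. Each of the 5 genes had at least 1 promoter of the low kind. Over 38219 promoters of coding genes, 41.7% were under 20%. The low promoters held a median of 5.39 CpGs per 100 bp (1.199 to 9.84) and the other promoters 1.60 (0.400 to 2.20), ranges that overlap.

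**Figure D1:**
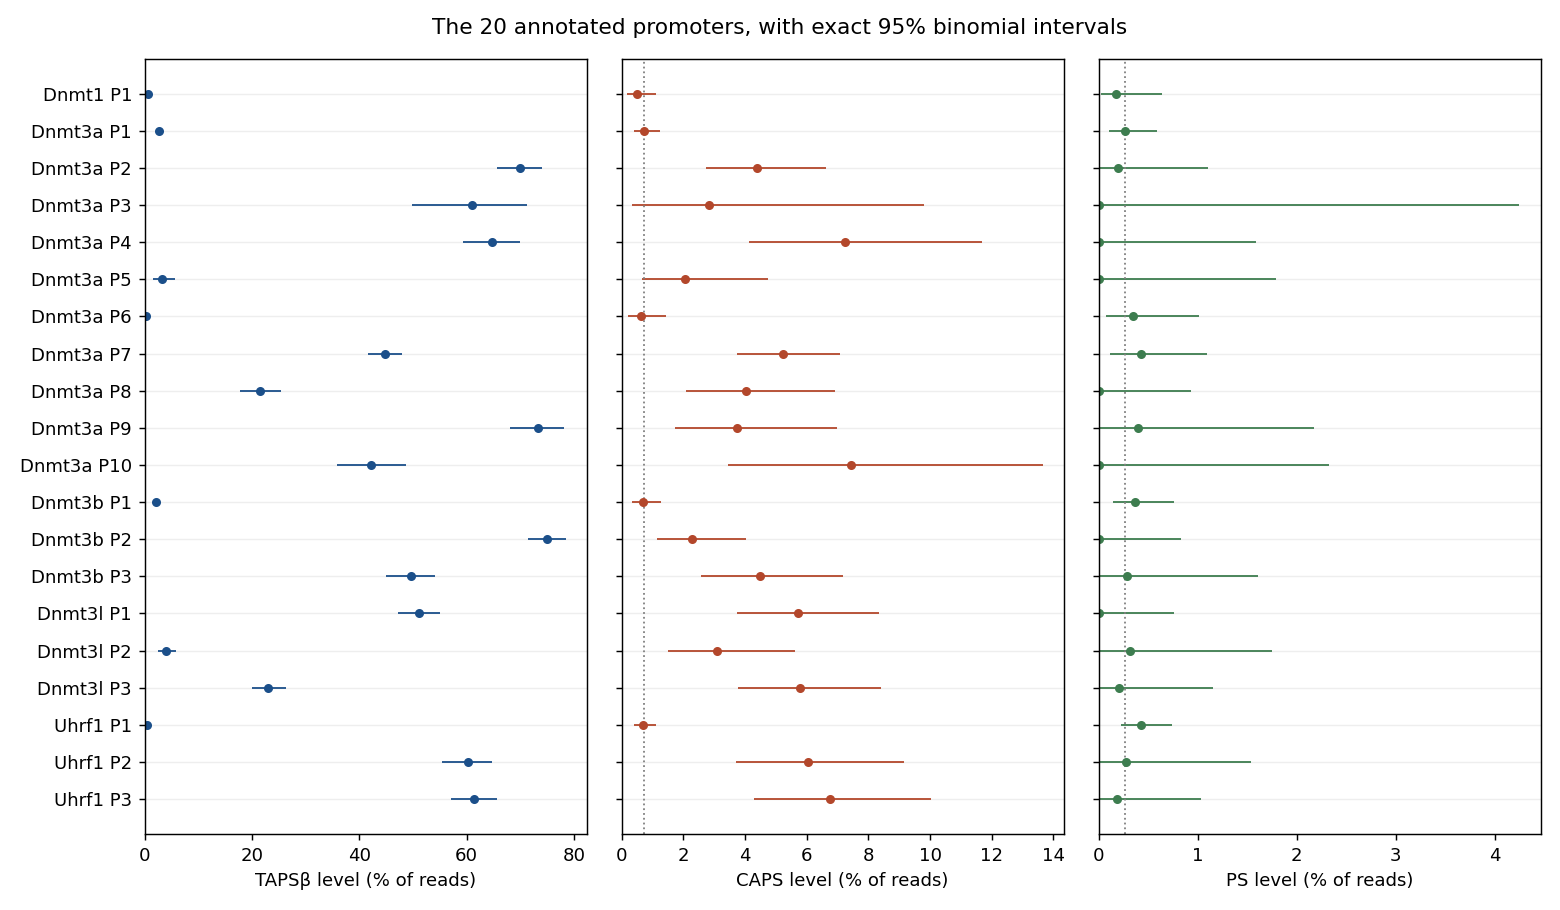
Level of each of the 20 annotated promoters in TAPSβ (left), CAPS (middle) and PS (right), in % of reads, with exact 95% intervals; dotted lines mark the false-positive rates of CAPS (0.72%) and PS (0.27%). Of the 20 promoters, 7 are at or below 3.90% in TAPSβ, and the PS intervals are wide and lie over the dotted line or touch it.

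Dnmt1 has 1 promoter in GENCODE M1 (Dnmt1-201, chr9:20756817-20757817), and 13 of its 1977 TAPSβ reads were modified (0.658%, 0.351 to 1.12%). CAPS gave 5 of 1034 reads (0.484%, 0.157 to 1.12%) and PS 2 of 1134 (0.176%). The RefSeq starts, which were added after the data had been seen, place 3 starts in Dnmt1. In windows of 500 bp on each side, the 2 starts near the GENCODE start had TAPSβ levels of 0.668% (13 of 1946 reads) and 0.169% (4 of 2360). The upstream start, 7015 bp before the GENCODE start, had 72.6% (77 of 106 reads, 63.1 to 80.9%) on 4 CpGs. Its CAPS level was 1 of 48 reads (2.08%, 0.0527 to 11.1%), too few to tell from the downstream starts. So the promoter at the downstream Dnmt1 starts was unmethylated and the window of the upstream start was methylated in the same cells, with intervals that do not overlap.

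Dnmt3a had the most promoters. Its first promoter (P1, 6 transcripts, chr12:3805507-3807660) had 109 of 4109 TAPSβ reads modified (2.65%, 2.18 to 3.19%). Within P1, the window of the most upstream start, that of the retained-intron transcript Dnmt3a-002, had 11.2% (101 of 898), whereas the windows of the 4 coding starts had 0.681% in Dnmt3a-017 (14 of 2056), 0.269% in Dnmt3a-001, 0.268% in Dnmt3a-008 and 0.275% in Dnmt3a-006. The internal promoter (P6, the coding transcripts Dnmt3a-005 and Dnmt3a-201, 85721 bp into the gene) had 4 of 1676 reads modified (0.239%, 0.0651 to 0.610%). P6 was lower than P1 (two-sided Fisher's exact test on reads with Benjamini-Hochberg adjustment over 45 tests, adjusted p = 9.84e-12), but in windows of 250 bp on each side the call was lost (exact adjusted p = 0.0611). In CAPS, P6 had 0.613% (5 of 816) and P1 0.731% (13 of 1778), with an exact adjusted p = 1. P1 and P6 were both low in 5mC, and neither was called above the CAPS false-positive rate.

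The other 8 Dnmt3a promoters belong to 1 transcript each, except P7 with 3. P5 (Dnmt3a-010, 79442 bp into the gene) also had a low TAPSβ level, 3.21% (11 of 343 reads, 1.61 to 5.67%), on 12 CpGs. P8 (Dnmt3a-014) had 21.5%, P10 (Dnmt3a-016) 42.2% and P7 (Dnmt3a-011, Dnmt3a-012 and Dnmt3a-013) 44.8%. P3 (Dnmt3a-007) had 60.9%, P4 (Dnmt3a-009) 64.8%, P2 (Dnmt3a-004) 70.0% and P9 (Dnmt3a-015) 73.3%. These 7 promoters of 21.5% or more exceeded P1 in TAPSβ by 18.8 to 70.7 percentage points, with exact adjusted p-values of at most 2.69e-46. P5 did not differ from P1 beyond counting error (exact adjusted p = 0.724), a comparison that turned with the choice of cytosines.

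In CAPS, the Dnmt3a promoters P4 and P10 were highest, at 7.25% (15 of 207 reads, 4.11 to 11.7%) and 7.44% (9 of 121, 3.46 to 13.7%). P7 followed at 5.23% (39 of 746), then P2 at 4.38%, P8 at 4.01% and P9 at 3.73%. These 6 exceeded P1, with exact adjusted p-values from 3.08e-11 to 0.00101. Neither P3, at 2.82% (2 of 71 reads, exact adjusted p = 0.190), nor P5, at 2.06% (5 of 243, exact adjusted p = 0.0997), was told from P1 at these depths. When only cytosines at least 150 bp apart were kept, which counts a read less often, none of the 6 passed, with exact adjusted p-values from 0.164 to 1.

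Dnmt3b held 10 of its 12 transcripts, all of them coding, in P1 (chr2:153474686-153475853), where 59 of 2819 TAPSβ reads were modified (2.09%, 1.60 to 2.69%). Its other promoters are starts of retained-intron transcripts, and had 75.1% in P2 (464 of 618 reads) and 49.6% in P3 (233 of 470), higher than P1 by 73.0 and 47.5 percentage points. In CAPS, P1 had 0.691% (10 of 1448), P2 2.27% (11 of 485, exact adjusted p = 0.0161 against P1) and P3 4.48% (16 of 357, exact adjusted p = 6.80e-06). With cytosines 150 bp apart neither CAPS difference passed (exact adjusted p = 1 and 0.458).

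In Dnmt3l, the most upstream promoter was methylated, as was the upstream RefSeq start of Dnmt1. P1 (Dnmt3l-001 and Dnmt3l-007) had 322 of 630 TAPSβ reads modified (51.1%, 47.1 to 55.1%). The internal P2 (Dnmt3l-002 and Dnmt3l-003, 7895 bp into the gene) had 24 of 615 (3.90%, 2.52 to 5.75%), and P3 (3 coding transcripts and 1 retained intron, 12888 bp into the gene) had 171 of 742 (23.0%, 20.1 to 26.2%). Against P3, which had the most coding transcripts, P1 was higher (exact adjusted p = 9.74e-27) and P2 lower (exact adjusted p = 1.30e-25). P3 itself was mixed: the window of the RefSeq and coding start of Dnmt3l-004 had 9.32% (40 of 429 reads). In CAPS the order was 5.72% in P1, 3.10% in P2 and 5.77% in P3, and neither P1 nor P2 differed from P3 beyond counting error (exact adjusted p = 1 and 0.190). P2 was the low promoter of the 7 that was called above the CAPS false-positive rate (10 of 323 reads, exact adjusted p = 0.000407).

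Uhrf1 P1, which holds all 5 of its coding starts (chr17:56442244-56444330), had 22 of 4895 TAPSβ reads modified (0.449%, 0.282 to 0.680%) and 17 of 2465 CAPS reads (0.690%, 0.402 to 1.10%). The starts of the retained-intron transcripts Uhrf1-006 (P2) and Uhrf1-007 (P3) had TAPSβ levels of 60.2% and 61.4%. Their CAPS levels were 6.02% (20 of 332, exact adjusted p = 1.13e-09 against P1) and 6.75% (22 of 326, exact adjusted p = 3.49e-11), differences that kept an exact adjusted p under 0.05 with cytosines 150 bp apart.

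Of the 20 promoters, 13 exceeded the CAPS false-positive rate (0.0072) when their pooled reads were tested with an exact binomial test (one-sided), beside 55.2% of the promoters of all coding genes, a share near that of the members. They were 12 of the 13 with TAPSβ of 20% or more and 1 of the 7 with less. The shares called in these 2 classes were not computed over all coding genes. In 500-bp tiles of the genome, CAPS was likewise lowest where TAPSβ was under 10% (1.53%). It was 6.43%, 5.01% and 2.75% in tiles from 10, 40 and 60% upwards, so this split is not particular to the members. In PS, 0 of the 20 were called above 0.0027 by the same exact test, where 0.681% of all promoters were called; at an unadjusted p under 0.05 the count was also 0. PS levels of the 20 promoters ran from 0% to 0.428% (4 of 934 reads in Dnmt3a P7). The 7 promoters with 0 PS reads modified had depths of 85 to 482 reads, at which 0 counts allow (as 3 counts of the total) a level of up to 3.53% and 0.622%. No promoter pair passed in PS.

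Of the 15 alternative promoters, 12 were called higher in TAPSβ than the promoter of most coding transcripts of their gene and 2 lower, beside 81.7% and 10.3% of the alternative promoters of all coding genes, shares near those of the members. In CAPS 10 were called higher and 0 lower, beside 45.6% and 5.59% of those of all coding genes. In PS, where 0 pairs of the members passed Fisher's exact test, also at an unadjusted p under 0.05, the shares were 0.0908% and 0.0424%.

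**Figure D2:**
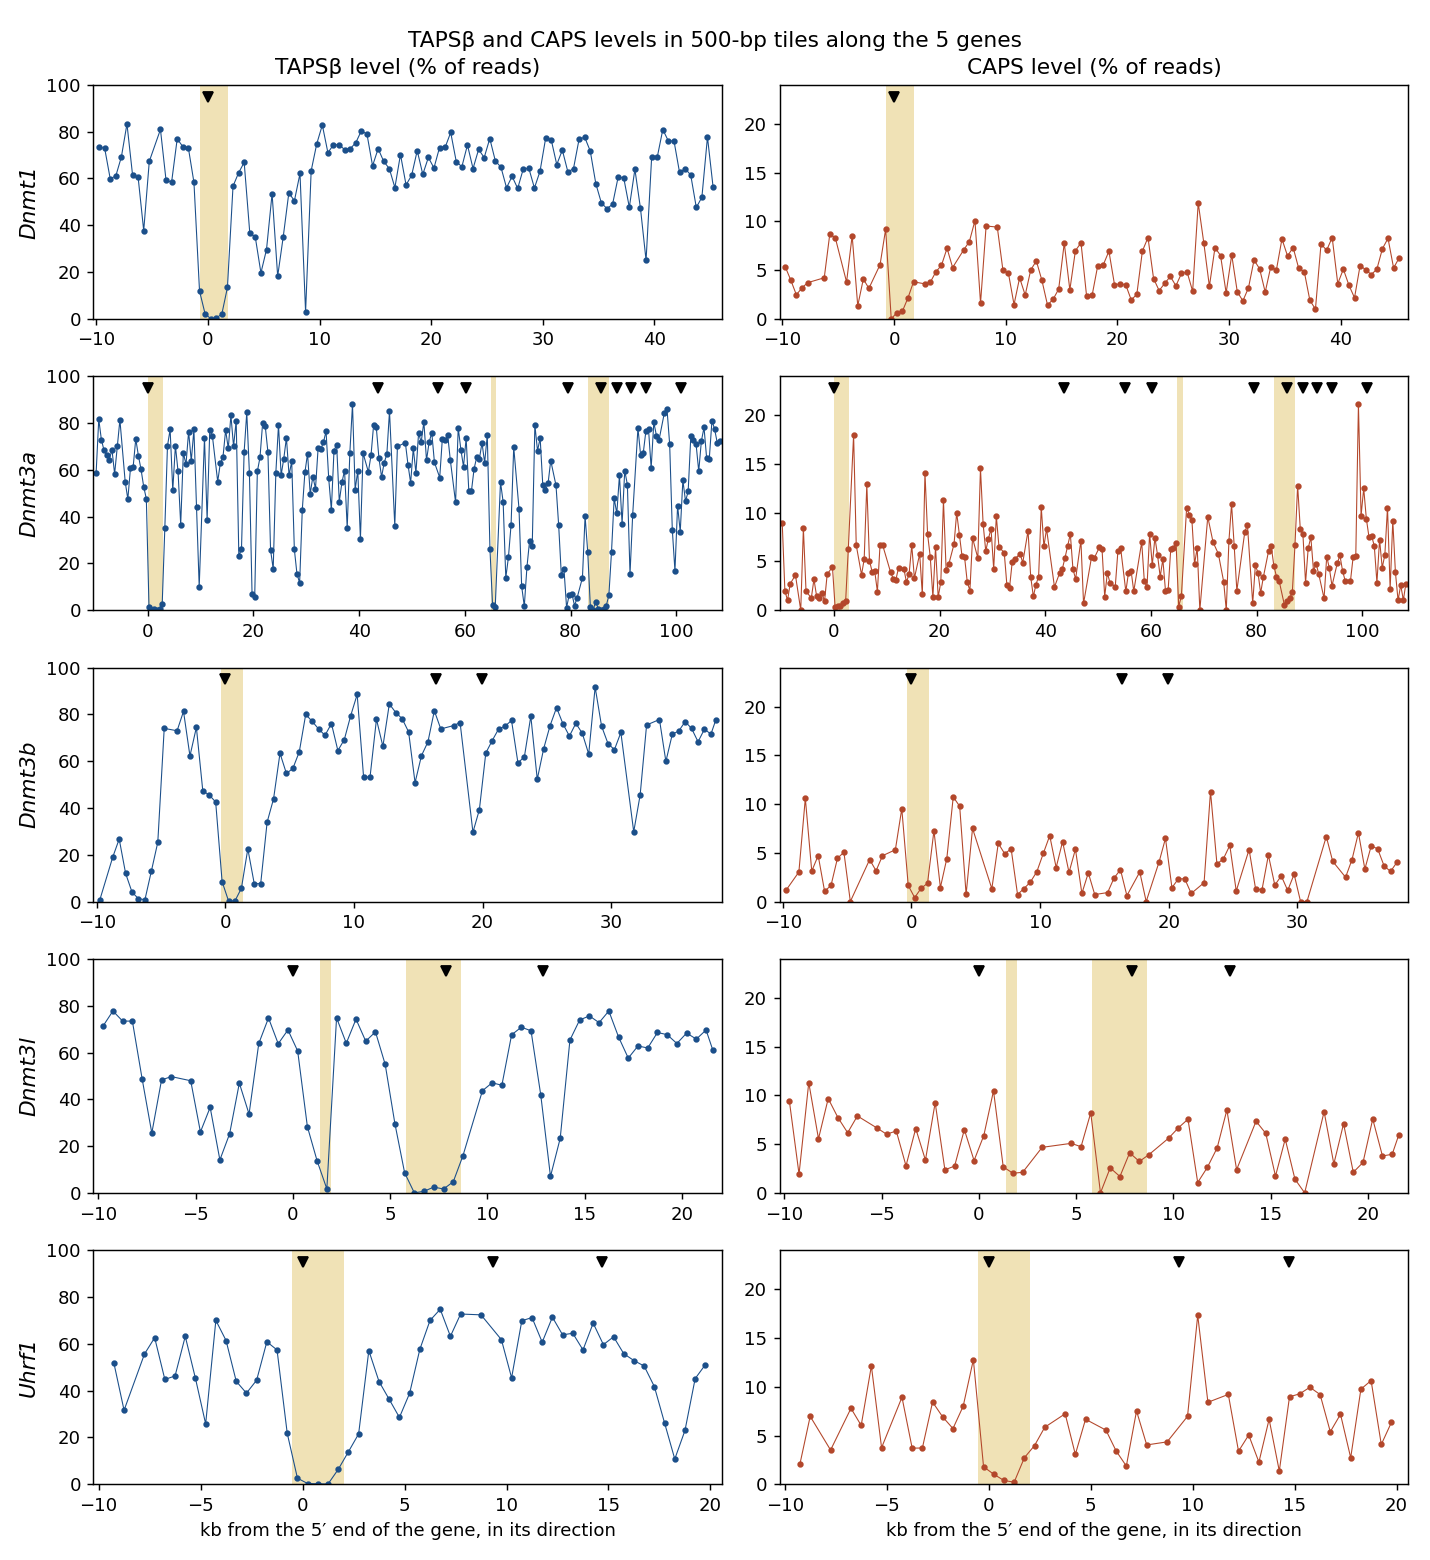
TAPSβ (left) and CAPS (right) levels, in % of reads, of 500-bp tiles with at least 50 reads against the distance from the 5′ end of each gene in kb; triangles mark the annotated promoters and shaded bands the runs of at least 30 neighbouring CpGs with TAPSβ under 20%. Each gene has a band at an annotated promoter, Dnmt3a has 3 bands and Dnmt3l 2, and CAPS is low inside the bands.

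The longest unmethylated stretch of each gene was longer than the promoter window it lay at. The longest run of neighbouring CpGs with TAPSβ under 20% spanned 94 CpGs over 2446 bp in Dnmt1, 303 CpGs over 2899 bp in Dnmt3a, 131 CpGs over 1721 bp in Dnmt3b and 139 CpGs over 2546 bp in Uhrf1, each at the first promoter. In Dnmt3l it spanned 50 CpGs over 2800 bp, from 5835 to 8634 bp into the gene, around P2. Dnmt3a held another run of 102 CpGs over 3845 bp around P6, from 83356 to 87200 bp into the gene, where TAPSβ was 1.15% (37 of 3230 reads). A run of 34 CpGs over 588 bp in Dnmt3l, from 1389 to 1976 bp into the gene, had a TAPSβ level of 2.32% (21 of 905 reads); it holds no start of Dnmt3l but 13 transcript starts of Aire, a gene on the opposite strand. A run of 35 CpGs over 1051 bp in Dnmt3a, from 64941 to 65991 bp into the gene, had 2.21% (31 of 1402) and holds no GENCODE M1 start of any gene. A further Dnmt3a run of 22 CpGs over 2122 bp lay at P5. In Dnmt3b a shorter run of 16 CpGs over 1498 bp lay from -7628 to -6131 bp relative to the gene start, also with no GENCODE M1 start in it. The longest run of Dnmt3b also holds the start of 7530422B04Rik, on the opposite strand, and the P6 run of Dnmt3a that of AC159324.1.

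CAPS was low inside the longest run of each gene, at 1.11% in Dnmt1, 0.882% in Dnmt3a, 0.922% in Dnmt3b, 2.31% in Dnmt3l and 0.816% in Uhrf1. In the 2 kb on the 3′ side it was 10.04% in Dnmt3a (26 of 259 reads, 6.66 to 14.4%), and in the 2 kb on the 5′ side 9.55% in Uhrf1 (40 of 419, 6.91 to 12.8%). The other 8 such flanks had 2.82% to 6.10%. The interval of the flank lay above that of the run at both flanks of Dnmt1, Dnmt3a, Dnmt3b and Uhrf1, and in Dnmt3l at the 5′ flank, where the level was 6.06% (18 of 297, 3.63 to 9.41%), while at its 3′ flank the bounds were 3.42% and 3.63% and overlapped. Both flanks lay above the run in this way in 47.9% of 15135 coding genes whose longest run held at least 15 CpGs, and at least 1 flank in 81%. Over the genome, CAPS was 1.53% in tiles with TAPSβ under 10% and 6.43% in tiles from 10 to 40%. The other runs of at least 15 CpGs were not all alike. In the Dnmt3a runs around P6 and at 64941 bp CAPS was 1.66% and 0.831%, below both flanks, but in the run at P5 (2.51%) and the shorter runs of Dnmt3l (1.65%) and Dnmt3b (2.31%) its interval overlapped that of the 3′ flank. A run of 7 CpGs in Uhrf1, 18201 to 18796 bp into the gene, had a CAPS level of 10.9% (18 of 165 reads, 6.59 to 16.7%) beside flanks of 6.66% and 4.94%, and a run of 5 CpGs in Dnmt1 had 6.90% (8 of 116 reads) beside 7.40% and 8.23%.

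**Figure D3:**
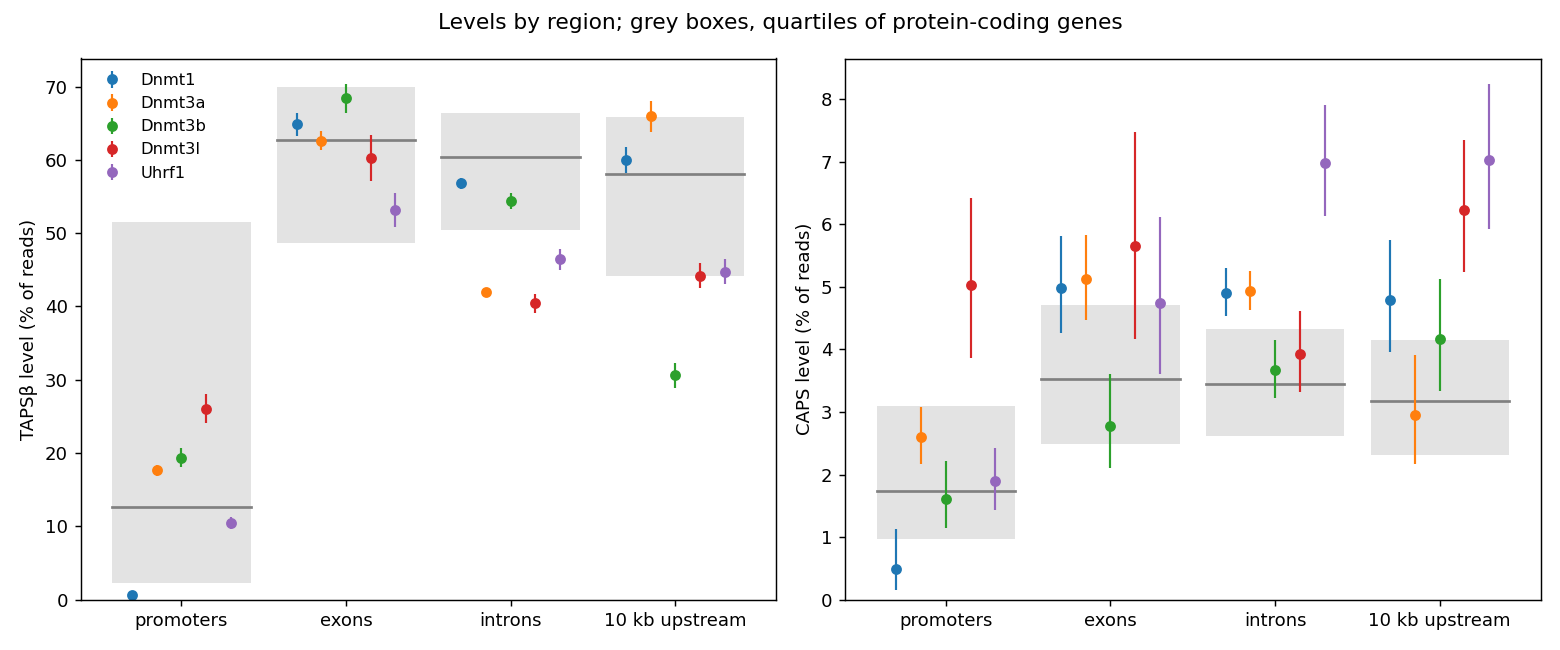
TAPSβ (left) and CAPS (right) levels in % of reads of the promoters, exons, introns and 10 kb upstream of each gene, with exact 95% intervals; grey boxes span the quartiles of protein-coding genes and grey lines their medians. Uhrf1 introns (6.99%) and upstream region (7.02%) stand highest in CAPS, and Dnmt3b exons (2.78%) are the lowest exons.

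Over exons, TAPSβ was 64.9% in Dnmt1 (63.3 to 66.5%), 62.6% in Dnmt3a (61.3 to 63.9%), 68.4% in Dnmt3b (66.4 to 70.3%), 60.3% in Dnmt3l (57.2 to 63.4%) and 53.2% in Uhrf1 (50.8 to 55.5%). Exons of Dnmt3b were thus the most and those of Uhrf1 the least methylated, and in the order of the 5 genes all neighbouring intervals overlapped except those of Dnmt3l and Uhrf1. Introns had lower levels: 56.8% in Dnmt1, 54.4% in Dnmt3b, 46.4% in Uhrf1, 41.9% in Dnmt3a and 40.4% in Dnmt3l. Exons exceeded introns in all 5 genes, by 6.75 percentage points in Uhrf1 (exact adjusted p = 7.76e-06, Fisher's exact test on reads) to 20.7 in Dnmt3a. The same test called exons higher in 44.7% of 17613 coding genes and lower in 28.8%. The size of the gap turned with the promoter window. With 250 and 1000 bp on each side, Dnmt3b introns had 51.4% and 60.5%, and its exons 68.3% and 68.5%. The intron levels of Dnmt3a and Dnmt3l were higher than in 14.3% and 13.1% of coding genes.

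Upstream of the genes, TAPSβ was 65.9% at Dnmt3a and 59.99% at Dnmt1, but 44.8% at Uhrf1, 44.2% at Dnmt3l and 30.6% at Dnmt3b (28.9 to 32.3%). Introns exceeded the upstream region in Dnmt3b by 23.7 percentage points. They lay below it in Dnmt3a (exact adjusted p = 2.09e-96), Dnmt3l (0.00136) and Dnmt1 (0.00411), and in Uhrf1 the difference was within counting error (exact adjusted p = 0.249). Over coding genes, introns were called higher than the upstream region in 47.9% and lower in 32.6%. With cytosines 150 bp apart the Dnmt3l difference was lost (exact adjusted p = 0.119) and Uhrf1 introns exceeded the upstream region (0.0290). The regions of Dnmt3l and Uhrf1 overlap Aire and Arrdc5, and the Dnmt3a region overlaps AC159324.1 and Gm10485 and that of Dnmt3b 7530422B04Rik, so that not all cytosines counted here belong to the members alone.

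In CAPS, Uhrf1 stood highest in introns and upstream, but not in promoters or exons. Its introns had 230 of 3292 reads modified (6.99%, 6.14 to 7.91%), above 98.6% of coding genes, and its upstream region 137 of 1951 (7.02%, 5.93 to 8.25%), above 98.9%. With promoter windows of 250 bp on each side, the intron level fell below the interval given. The place among coding genes is for windows of 500 bp. Uhrf1 exons had 4.74% (56 of 1181), lower than its introns (exact adjusted p = 0.0169, but 0.564 with cytosines 150 bp apart), a call made in 5.19% of coding genes, where 9.6% had higher exons. No other difference between exons and introns passed in CAPS: the levels were 4.99% and 4.91% in Dnmt1, 5.12% and 4.94% in Dnmt3a, 2.78% and 3.67% in Dnmt3b, and 5.66% and 3.93% in Dnmt3l (exact adjusted p = 0.884, 0.701, 0.126 and 0.0780).

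Dnmt3l had a high CAPS level upstream, 6.23% (132 of 2119 reads, 5.24 to 7.34%), above 97.1% of coding genes and above the 3.93% of its own introns (exact adjusted p = 0.000428). In Dnmt3a the order was the other way, 2.95% upstream (46 of 1560) and 4.94% in introns (929 of 18822, exact adjusted p = 0.000686). Introns were called lower than upstream in 11.3% of coding genes and higher in 15.4%. Dnmt1 had 4.79% upstream and Dnmt3b 4.16%, and neither differed from its introns (exact adjusted p = 0.884 and 0.475). Dnmt3b had the lowest CAPS level in exons and in introns of the 5 genes, although its intron interval (3.23 to 4.16%) overlapped that of Dnmt3l (3.32 to 4.62%).

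The ratio of CAPS to TAPSβ level in introns was 0.1505 in Uhrf1 (0.132 to 0.171, a 95% interval by normal approximation of the log ratio, as for the other ratios), 0.118 in Dnmt3a (0.110 to 0.125), 0.0972 in Dnmt3l, 0.0864 in Dnmt1 and 0.0675 in Dnmt3b (0.0595 to 0.0766), beside a median of 0.0598 over 17949 coding genes. All ratios use levels as read, without subtracting the CAPS false-positive rate (0.72%) or correcting for incomplete conversion. They are therefore not ratios of the modified bases themselves. The false-positive rate is a larger part of a low CAPS level, such as that upstream of Dnmt3a (2.95%). The ratio in Uhrf1 introns lay above that in 92.7% of coding genes and that in Dnmt3b introns above 59.2%. Upstream the order was another: the ratio was 0.157 in Uhrf1, 0.141 in Dnmt3l and 0.136 in Dnmt3b, above 93.8%, 91.4% and 90.5% of coding genes, but 0.0798 in Dnmt1 and 0.0447 in Dnmt3a, beside a median of 0.0613.

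PS levels were low in all regions, from 0% in Uhrf1 exons (0 of 1354 reads, which allows up to 0.222%) to 0.512% in Dnmt3l exons (4 of 781 reads, 0.140 to 1.31%). In no region did the interval lie above the PS false-positive rate of 0.27%. The Dnmt3l exon level was 0.259% without variant-like cytosines and 0.184% with a minimum of 10 reads. No exon, intron or upstream comparison passed in PS with all cytosines; with cytosines 150 bp apart, Dnmt1 exons (5 of 847 reads) exceeded its introns (5 of 4249, exact adjusted p = 0.0414). With all cytosines, PS exons were called higher than introns in 0.709% and lower in 0.285% of coding genes, and introns higher than upstream in 0.698% and lower in 1.14%. The lowest exact adjusted p with all cytosines was 0.0780, reached by the exons against introns of Dnmt3a (0.0645% and 0.217%) and of Dnmt3l (0.512% and 0.119%), which differed in opposite directions. Without variant-like cytosines, Dnmt3a introns had 0.169% (35 of 20753 reads). The exact adjusted p was then 0.259 in Dnmt3a and 0.354 in Dnmt3l.

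**Figure D4:**
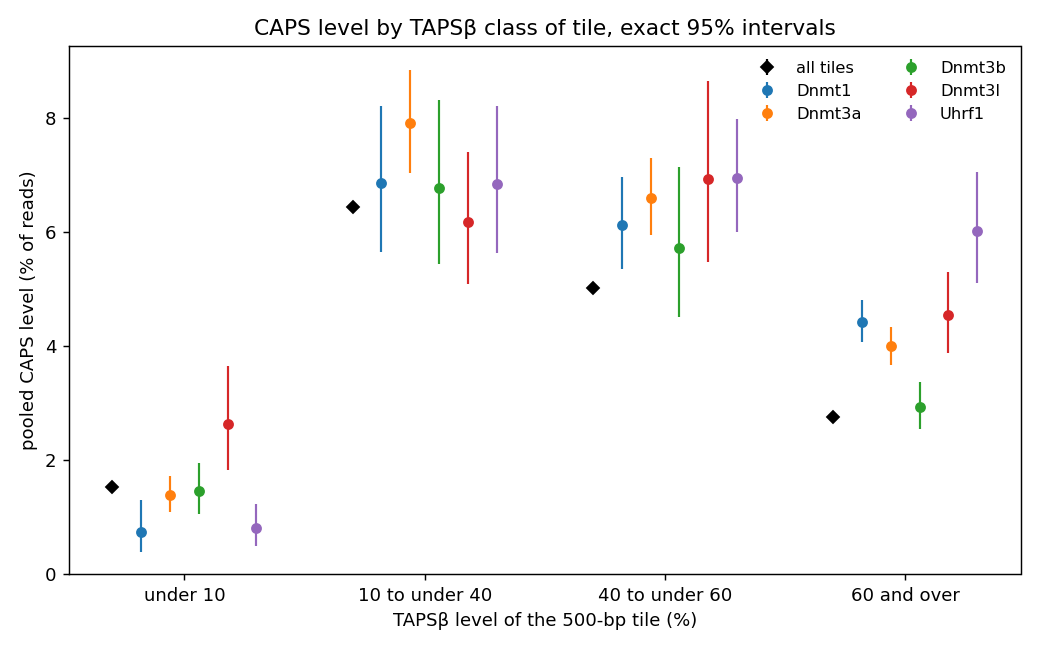
Pooled CAPS level (% of reads, exact 95% intervals) of 500-bp tiles in 4 classes of TAPSβ level, for each gene with its 10 kb upstream and for all tiles of the genome with at least 50 reads in both libraries. CAPS is lowest in tiles under 10% TAPSβ, and in tiles of 60% and over Uhrf1 (6.02%) lies above all tiles (2.75%).

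Because the genes differed in 5mC, CAPS is also given for 500-bp tiles in classes of TAPSβ level, chosen after the data had been seen. In the genome, CAPS was 1.53% in tiles with TAPSβ under 10%, 6.43% from 10 to under 40%, 5.01% from 40 to under 60% and 2.75% at 60% and over. In the 5 genes together it was 1.34%, 7.10%, 6.48% (6.08 to 6.90%) and 4.13% (3.93 to 4.33%). In the class of 60% and over, Uhrf1 had 6.02% (147 of 2441 reads, 5.11 to 7.04%), Dnmt3l 4.54% (3.87 to 5.29%), Dnmt1 4.42% (4.07 to 4.80%) and Dnmt3a 3.997% (3.67 to 4.34%), all with intervals above 2.75%. Dnmt3b had 2.94% (2.55 to 3.37%), an interval that holds 2.75%. The TAPSβ level within this class was not equal: it was 72.9% in the genome, 73.0% in Dnmt3b, 71.5% in Dnmt3a, 69.4% in Dnmt3l, 69.1% in Dnmt1 and 66.6% in Uhrf1, and its part in the CAPS differences was not tested. Tiles of a gene share a neighbourhood and are not replicates, and the difference from the genome was not tested.

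At single cytosines, 199 of 7615 tested in the members (2.61%) were called in CAPS, by the same exact binomial test with a minimum of 5 reads and adjustment over the genome, beside 1.64% of all cytosines tested. By gene the calls were 36 of 939 in Uhrf1 (3.83%, 2.70 to 5.27%), 81 of 2883 in Dnmt3a (2.81%, 2.24 to 3.48%), 50 of 1815 in Dnmt1 (2.75%, 2.05 to 3.62%), 16 of 787 in Dnmt3l (2.03%, 1.17 to 3.28%) and 16 of 1191 in Dnmt3b (1.34%, 0.770 to 2.17%). The intervals of Dnmt3l and Dnmt3b hold the share of the genome. In Uhrf1, 31 of the 36 calls lay in introns (17 of 308 cytosines) and upstream (14 of 209). In Dnmt1, 0 of 93 promoter cytosines were called. Over the 5 genes together, 1.26% of promoter, 2.61% of exon, 2.73% of intron and 3.90% of upstream cytosines were called. Shares by region were not computed over all coding genes, so the places of these calls are not read as particular to Uhrf1 or Dnmt1. Of the 199 calls, 9 CpGs account for both strands.

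The 500-bp tile with the highest CAPS level in each gene, among tiles with at least 50 CAPS reads, was chosen for that level and is described without a test. It was 21.1% in Dnmt3a (15 of 71 reads, 12.3 to 32.4%), 17.3% in Uhrf1 (17 of 98, 10.4 to 26.3%), 11.9% in Dnmt1 (17 of 143), 11.3% in Dnmt3l (12 of 106) and 11.3% in Dnmt3b (7 of 62). These places turn on the minimum of reads: with a minimum of 25 in place of 50, the highest tile was another in Dnmt1 (24.5%, 12 of 49 reads), Uhrf1 (23.5%, 8 of 34), Dnmt3b (17.1%, 7 of 41) and Dnmt3l (11.4%, 4 of 35), and the same in Dnmt3a. The Dnmt1 tile of 49 reads holds chr9:20751607, an intron cytosine called with 5 of 5 CAPS reads, where 3 of 4 PS reads and 9 of 10 TAPSβ reads were modified. This cytosine gave 5 of the 12 modified CAPS reads of that tile. A base difference between E14 and the reference genome would also be read as modified there, which was not tested. Its 4 PS reads are below the minimum of 5 for variant-like cytosines, defined below. The tiles of at least 50 reads lay in introns in Dnmt1, Dnmt3a and Uhrf1, over an exon and introns in Dnmt3b and upstream in Dnmt3l. TAPSβ in them was 34.4% in Dnmt3a, 45.5% in Uhrf1, 60.9% in Dnmt1, 61.9% in Dnmt3b and 73.5% in Dnmt3l, and PS had 0 modified reads in all of them but that of Uhrf1 (1 of 124). The called cytosines of these tiles are shown with 20 bases on each side of the outer ones, on the gene's strand in NCBIM37; capitals mark the called cytosines, as G where the call is on the opposite strand.
Dnmt1 (chr9:20729913-20729953, minus strand): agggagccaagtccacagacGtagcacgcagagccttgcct
Dnmt3a (chr12:3905053-3905335, plus strand): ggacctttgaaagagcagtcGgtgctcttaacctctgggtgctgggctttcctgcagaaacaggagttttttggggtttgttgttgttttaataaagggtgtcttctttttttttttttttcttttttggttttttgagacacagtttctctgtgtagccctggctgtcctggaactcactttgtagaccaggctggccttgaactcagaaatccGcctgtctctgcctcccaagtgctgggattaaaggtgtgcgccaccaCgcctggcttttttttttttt
Dnmt3b (chr2:153498214-153498254, plus strand): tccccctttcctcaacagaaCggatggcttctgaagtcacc
Dnmt3l (chr10:77496023-77496063, plus strand): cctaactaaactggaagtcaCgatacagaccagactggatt
Uhrf1 (chr17:56453069-56453109, plus strand): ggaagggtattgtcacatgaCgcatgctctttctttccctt

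The Dnmt3a stretch holds 4 CpGs and 3 called cytosines, with 12 of 62 CAPS reads and 32 of 85 TAPSβ reads modified. Its latter part reads as a B1 element, a short repeat with many copies in the mouse genome, and whether reads from other copies took part in this level was not tested. The other stretches hold 1 called cytosine each.

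Where a cytosine had 10 or more CAPS reads, the highest levels were 5 of 10 reads at chr2:153467057 upstream of Dnmt3b (50%, 18.7 to 81.3%) and 5 of 11 at chr17:56441962 upstream of Uhrf1 (45.5%, 16.7 to 76.6%). They were followed by 5 of 12 at chr12:3809709 in an intron of Dnmt3a (41.7%), 4 of 10 at chr12:3883378 in Dnmt3a and 4 of 10 at chr17:56439759 upstream of Uhrf1. In Dnmt3l the highest was 4 of 12 at chr10:77496043, in its top tile. In Dnmt1 none exceeded 3 of 10 reads (30%, 6.67 to 65.2%). Ties left 23 cytosines at or above the level of the third highest of their gene, 8 of them in Dnmt1 at 3 of 10 reads. These 23 had 0 modified PS reads and at least 1 modified TAPSβ read. With 10 to 14 CAPS reads, the order among them lies within counting error.

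In PS, 1 of 7991 cytosines of the members was called, beside 0.0791% of all cytosines tested. It lay at chr12:3819047 in an intron of Dnmt3a, with 9 of 20 PS reads (45.0%, 23.1 to 68.5%), 3 of 5 CAPS reads and 1 of 1 TAPSβ reads modified. It was among 6 variant-like cytosines of the members, defined by a PS level from 20% upwards (minimum 5 reads), at which a base difference between E14 and the reference genome would also be read as modified; which of these it was, was not tested.

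By the TAPSβ and CAPS levels of the 4 region types, the coding genes most like 4 of the members (smallest distance over 8 values, each divided by its spread over 16464 genes) were 2700060E02Rik, Tacc1 and Dync2li1 for Dnmt1, Arid3b, Rapgef1 and Slco4a1 for Dnmt3a, Blvrb, 4833442J19Rik and Echs1 for Dnmt3b, and Srxn1, Cpsf4l and Tead4 for Uhrf1. The nearest distance was 0.412 for Dnmt1 and 0.931 for Uhrf1, where the median distance to all genes was 3.13 and 4.63. No member was among the 3 genes nearest to another: the closest pair, Dnmt1 and Dnmt3a, had a distance of 2.21, and the best rank was that of Dnmt1 among the genes nearest to Uhrf1, 969 of 16464. Srxn1 had CAPS levels of 7.10% in introns and 7.25% upstream, beside 6.99% and 7.02% in Uhrf1.

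Genes that work with the members were also read. Of 6 partners of maintenance methylation (Uhrf2, Usp7, Pcna, Lig1, Hells and Cdca7), 4 had promoter TAPSβ levels under 20%, beside 59.9% of all coding genes. The 6 ran from 3.03% in Pcna, the replication clamp, to 25.7% in Lig1, a DNA ligase. Their intron CAPS median was 3.85%, beside 3.45% over coding genes and 4.91% over the members, and the highest was Usp7, which deubiquitinates UHRF1 and DNMT1, at 5.18%. Of 10 silencing and imprint partners, among them the H3K9 methyltransferase Setdb1 and the corepressor Trim28, 8 had promoters under 20%, and the highest was Dppa3, at 34.0%. Their intron CAPS median was 4.75%, and 8 of the 10 were at or above the median of coding genes. Of 6 readers of methylated CpGs, 4 had promoters under 20%, from 0.114% in Zbtb33 to 64.9% in Mbd4, the glycosylase that acts on T in mismatches at CpGs, and their intron CAPS median was 4.60%. Across these lists no gene had an intron CAPS level as high as that of Uhrf1; the highest was 6.42% in Suv39h1, another H3K9 methyltransferase. The Suv39h1 level rests on 483 reads, and the difference from Uhrf1 was not tested. The Uhrf1 level was lower with promoter windows of 250 bp on each side.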

How the data were processed

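The members and lists were chosen with earlier results of these data known. The authors trimmed reads (Trim Galore 0.3.1), mapped them to mm9 with spike-ins (BWA 0.7.12), removed duplicates (Picard 2.3.0), dropped poorly mapped reads, and used asTair for modification calls. At each CpG cytosine the authors deposited the count of modified reads and the count of unmodified reads, and the fraction of modified reads rounded from them. The study left known E14 variants and artifact-prone regions out of its later analyses; whether the deposited values carry this is not given in the sources used here.

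Counts were pooled by region of GENCODE M1 on NCBIM37 (mm9); every listed position was a CpG cytosine there. Regions below 100 reads were left out of comparisons among genes, and promoters below 50 reads out of promoter calls. Promoters were compared with the promoter of most coding transcripts (45 tests) and regions with each other (30 tests) by two-sided Fisher's exact tests. Calls used one-sided exact binomial tests against the study's false-positive rates on unmodified DNA, 0.0072 for CAPS and 0.0027 for PS; for PS the test was carried over. All p-values were adjusted by Benjamini-Hochberg, over these tests for the members and over all coding genes for the shares of coding genes called. Reads count at every cytosine they cover, so p-values are too small and the intervals of pooled levels and of ratios too narrow. Duplicates without molecular identifiers add to this. A median depth of 9 to 13 reads leaves single cytosines imprecise. The rule for named features took every promoter, the top CAPS tile, the 3 top CAPS cytosines with at least 10 reads, PS calls and the longest low-TAPSβ run of each gene. RefSeq starts, flanks, shorter low runs, tile classes, tiles of 25 reads or more and the shares of coding genes called in Fisher tests and flanks were added after the data had been seen. Alternatives covered averaging, depth minimums, windows, variant-like and high-coverage cytosines, spacing and strands. The calling and Fisher steps were tested on simulated data. Scripts ran in Python 3.11.15 with scipy 1.17.1 and numpy 2.4.6; pandas 2.3.3 read the tables and matplotlib 3.10.9 drew the plots. The genes most like Dnmt3l are not reported here.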

Additional observations from a re-analysis of the deposited data

How the results depend on the processing

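Of 40 alternative values of CAPS in introns 1 left its interval, and of 40 of TAPSβ in promoters 15 did. In 9 and 13 of them the alternative left the value as it was, for example because no cytosine of the members had a high CAPS coverage. Promoter TAPSβ moved with the window. With 250 bp on each side it was 0.215% in Dnmt1, 15.1% in Dnmt3a, 13.9% in Dnmt3b, 22.6% in Dnmt3l and 4.79% in Uhrf1, where Uhrf1 intron CAPS was 5.66%, and with 1000 bp it was 22.2% in Dnmt3a and 14.6% in Uhrf1. With coding starts alone it was 11.1% in Dnmt3a, 2.09% in Dnmt3b, 17.2% in Dnmt3l and 0.449% in Uhrf1. The mean of single cytosines gave 16.0% in Dnmt3a and 14.8% in Uhrf1, and a minimum of 10 reads 20.3% and 8.87%.

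With cytosines 150 bp apart, 2 of the alternative promoter pairs passed in CAPS and 1 region pair passed in PS (Dnmt1 exons against introns), Dnmt3a P5 minus P1 was -11.5 percentage points in TAPSβ and -0.977 in CAPS, and exons minus introns in CAPS was -0.247 in Dnmt1 and 0.467 in Dnmt3b. By the mean of single cytosines, CAPS was 0.0121 higher in Dnmt3a P6 than P1 and 1.35 higher in Dnmt3l P1 than P3, the latter 0.352 with 250-bp windows. The cause was not tested. Called CAPS cytosines numbered 680 (26.9%, genome 22.8%) when adjusted over cytosines with a modified read alone and 367 (8.81%, genome 5.12%) with strands summed. PS calls numbered 154 of 160 (genome 97.0%) and 2; without variant-like cytosines there were 0 PS calls. Each of these settings changes which cytosines are tested. Adjusting over cytosines with a modified read alone selects them by the outcome that is tested. In PS nearly all of them then pass, in the genome as in the members. The 680 CAPS and 154 PS calls are therefore no evidence of more modified cytosines than the main calls. No paired analysis was possible because each method has 1 library.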
